A study of Mus musculus with 6 samples.

Results

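The 39 genes described here encode the machinery of mitosis and of the G2/M transition. They were listed by name, from mitotic kinases and cyclins to condensins, kinetochore proteins, spindle motors and cytokinesis factors, and were matched by symbol in a table of 31401 genes. All 39 were found, and all 39 passed the filter on low counts. RNA was sequenced from primary osteoblasts of wild-type C57BL/6 mice, released by trypsin and collagenase from the calvaria (skull roof) of 3-day-old animals. The ZM group (3 samples) spent 6 days in osteogenic induction medium with 10 μM ZM, and the Ctrl group (3 samples) spent the same 6 days in that medium without it. ZM stands for ZM-306416, a synthetic compound that blocks EGF receptor and VEGF receptor tyrosine kinases. The batch label is the same for all 6 samples. Whether replicates came from separate cultures or animals is not labelled, so the p-values reflect spread among these 6 samples alone, and that spread may be technical.

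Library totals were 57020669, 44714005 and 48768462 counts in ZM samples and 42721326, 69867931 and 62191251 counts in Ctrl samples. Of 17533 genes tested, 3935 were lower and 4004 higher with ZM (edgeR quasi-likelihood test, adjusted p below 0.05), so 50.4% of the calls were rises. Scaled by library size alone, 62.2% of the calls were rises. Of the 12 osteoblast markers listed, Ibsp and Bglap, which encode bone matrix proteins of mature osteoblasts, were nearly absent. They reached at most 14 and 9 counts in any library. Other markers on this list moved with ZM: of 11 tested, 7 were called higher, 1 lower and 3 not called. Alpl (3.58), Sp7 (0.85) and Dlx5 (0.80) had the highest log2 fold changes (ZM over Ctrl) of those called, and Phex (-2.23) was the 1 lower. Summed over 12 osteoblast markers the level was 3420 to 3540 FPKM (counts scaled by library size and gene length) in ZM samples and 2957 to 3142 FPKM in Ctrl samples. The same sum over 18 macrophage markers was 8281 to 9224 FPKM in ZM samples and 15137 to 15597 FPKM in Ctrl samples, and over 11 osteoclast markers 571 to 585 FPKM in ZM samples and 310 to 330 FPKM in Ctrl samples. These sums rest on few genes: Sparc, Col1a1 and Col1a2 made up 98.5% of the osteoblast sum in ZM samples and 99.0% in Ctrl samples, Lyz2 76.0% of the macrophage sum in ZM samples and 79.5% in Ctrl samples, and Ctsk 68.2% of the osteoclast sum in ZM samples and 86.9% in Ctrl samples. Sparc was called higher with ZM, and Col1a1 and Col1a2 were not called. No marker on these 3 lists was at 0 in any library. Endothelial markers were scarce, at 1.78 to 2.03 FPKM in ZM samples and 1.91 to 2.25 FPKM in Ctrl samples over 7 genes. Tie1 and Cldn5 were at 0 in 5 of the 6 libraries, while Vwf reached 440 and Erg 336 counts. Of 5 endothelial markers tested, 2 were called lower (40%, against 22.4% of all genes tested), 0 higher and 3 not called. The 2 were Cdh5 (log2 fold change -2.23, at most 61 counts) and Vwf (-0.77).

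A cell enters mitosis when CDK1, bound to B-type cyclins, is switched on by the CDC25 phosphatases and by Polo-like and Aurora kinases. Condensins and topoisomerase then compact and untangle the chromosomes, kinetochores attach them to the spindle, and a checkpoint holds back the anaphase-promoting complex until each one is attached. Most of these transcripts accumulate only in late S phase, G2 and M, so their level in a culture follows the share of dividing cells, and in bulk RNA fewer cycling cells and less RNA per cycling cell cannot be told apart.

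Many of the mitotic genes were lower with ZM, by small amounts, and none was called higher. Of the 39, 22 (56.4%) were lower at the adjusted threshold, against 22.4% of all genes tested. The 39 were chosen with earlier results of these data known, so such contrasts with all genes describe these data only. The count called higher was 0, against 22.8% of all genes tested. At an unadjusted p below 0.05 the count of higher members was also 0, and DESeq2 called 0 higher. The log2 fold change (ZM over Ctrl) was below 0 for 38 of the 39 and ran from -0.47 for Mki67 to 0.04 for Cenpf. Its median was -0.18 over the 39 genes and -0.00095 over all genes tested, and 29.0% of all tested genes had a fold change lower than the median of the 39. Called and at least 1.2-fold lower were 7 of the 39 (17.9%), against 14.3% of all genes tested, and 0 reached 1.5-fold.

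Seen sample by sample, the transcripts of the 39 genes together summed to 925, 944 and 980.0 CPM (counts scaled by TMM-adjusted library size) in ZM samples, against 1093, 1073 and 1134 CPM in Ctrl samples. The groups did not overlap, and the ZM mean was 86.4% of the Ctrl mean. On the deposited FPKM, which are scaled by library size alone, the sums were 172, 174 and 181 FPKM in ZM samples and 193, 188 and 202 FPKM in Ctrl samples, and the ZM mean was 90.5% of the Ctrl mean. In 24 of the 39 genes every ZM sample lay below every Ctrl sample, against 26.4% of all genes tested. In 0 of the 39 did every ZM sample lie above every Ctrl sample, against 27.8% of all genes tested. ZM-1 held the lowest value of 20 of the genes and ZM-2 of 13, while Ctrl-3 held the highest value of 25 and Ctrl-1 of 10.

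**Figure D1:**
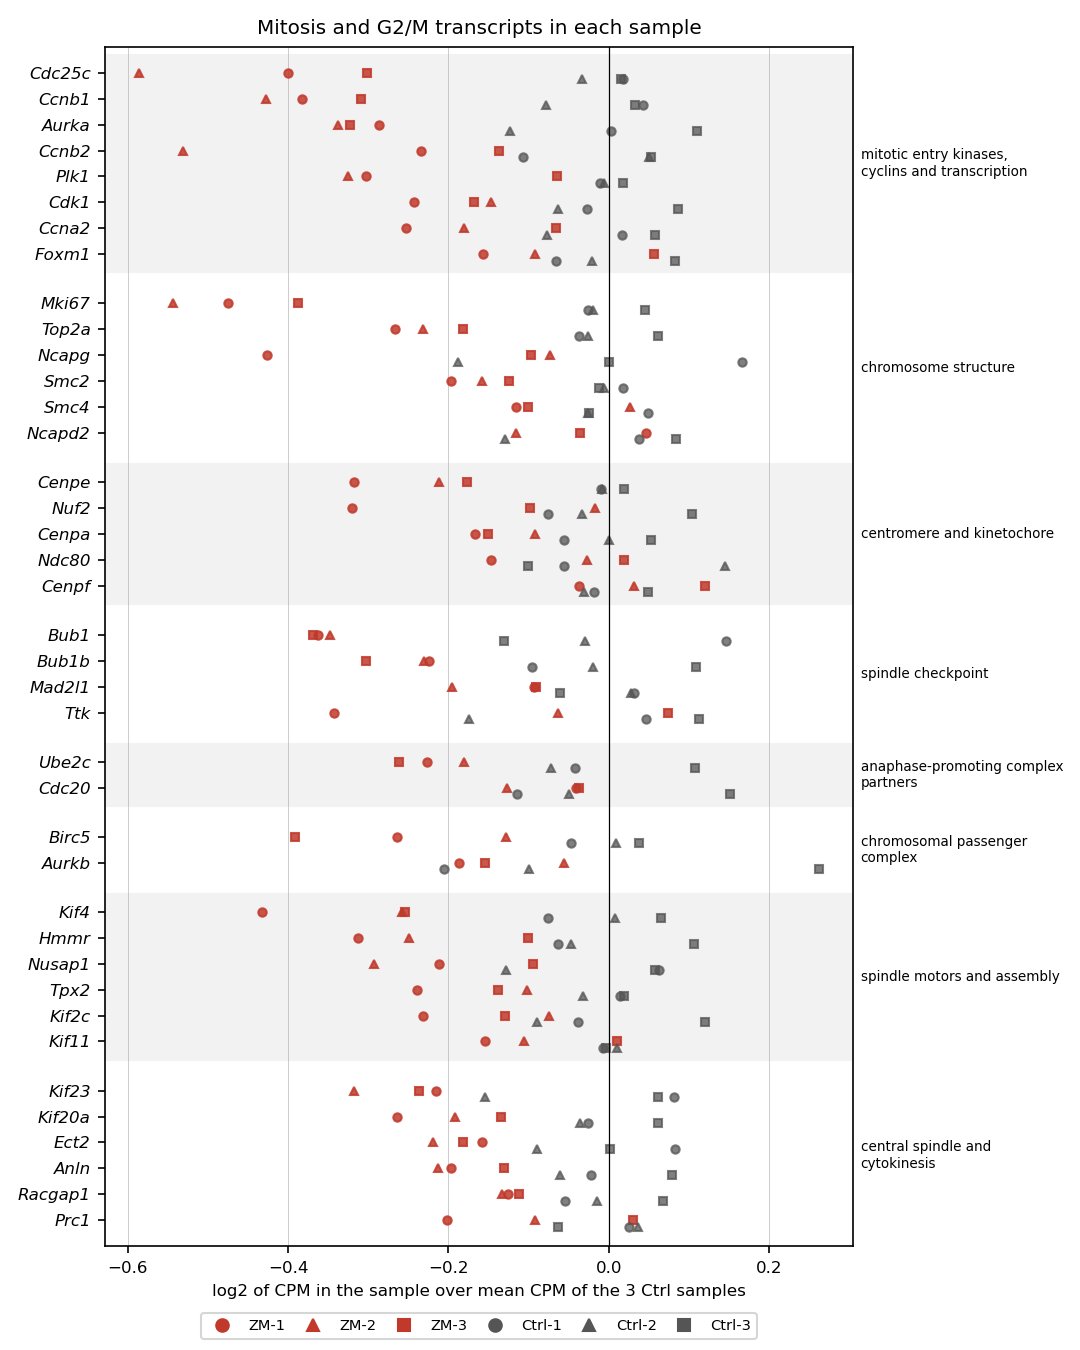
Each row is a mitotic gene, grouped by role, and each point is the log2 of its CPM in a sample over its mean CPM in the 3 Ctrl samples (red, ZM; grey, Ctrl; marker shape, replicate number). Most red points lie left of the grey ones, with Mki67, Cdc25c and Ccnb1 farthest left, while Cenpf, Ncapd2 and Ndc80 overlap between groups.

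The number of genes called depended on scaling and on 1 library in each group. With library size alone as the scaling 11 of 39 were lower (28.2%), against 17.4% of all genes tested. With limma on log2(FPKM + 1) or log2(FPKM + 0.1), 10 of the 38 genes tested were lower (26.3%), against 19.2% of all genes tested. Without ZM-1 the count was 14 (35.9%), against 18.8% of all genes, and without Ctrl-3 it was 13 (33.3%), against 19.5%. Other choices moved it less: DESeq2 called 20, against 18.6% of all genes, leaving out ZM-2 gave 18, against 20.2%, and keeping genes with a mean of at least 1 CPM gave 24, against 26.7%. The 9 genes called lower under each of the 14 alternatives that tested them were Mki67, Top2a, Ccnb1, Cdc25c, Aurka, Cenpe, Bub1, Bub1b and Kif4. No alternative called any of the 39 higher. Relative to the median of all genes, the median of the 39 was -0.18 with the scaling used here and -0.18 with library size alone. A change of scaling shifts all genes of a sample alike, so these values were bound to be close. The gap was -0.13 with limma on log2(FPKM + 1) and -0.17 on log2(FPKM + 0.1). With 1 sample left out it ran from -0.21 (without Ctrl-2) to -0.16 (without ZM-1).

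**Figure D2:**
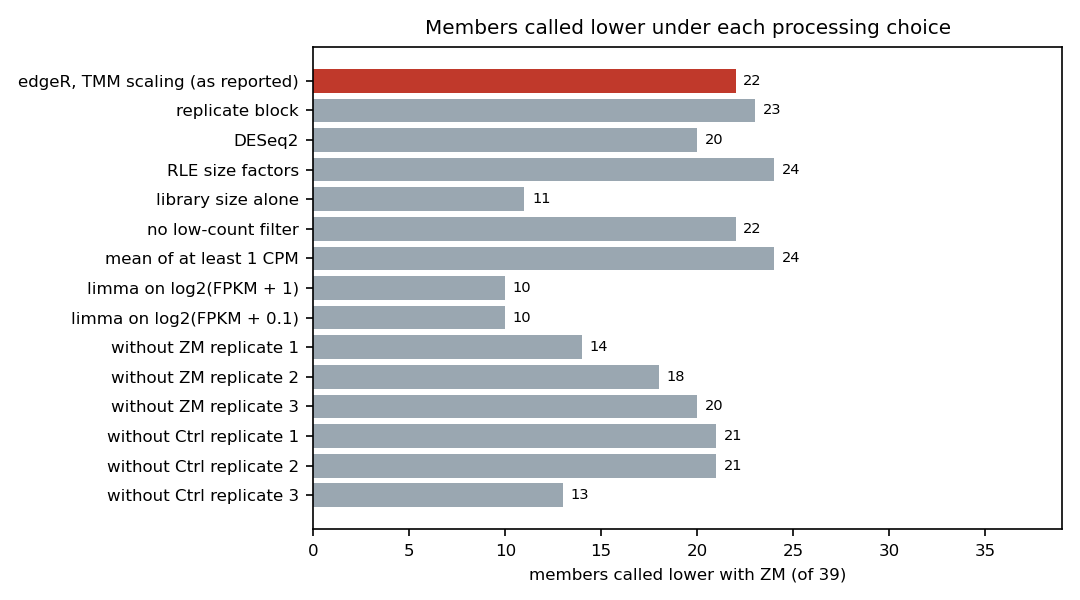
Bars give how many of the 39 mitotic genes were called lower with ZM (adjusted p below 0.05) under each processing choice, with the reported choice in red. The count is 22 as reported, 10 or 11 with library size scaling or FPKM, and 13 or 14 without Ctrl-3 or ZM-1.

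Many genes of this kind share a promoter element, the cell cycle genes homology region (CHR), at which MuvB complexes are known to bind. These hold cell cycle genes down in resting cells as the DREAM complex and drive them in dividing cells together with B-MYB and FOXM1. CCAAT boxes, bound by NF-Y, often lie a short way 5′ of it. RefSeq promoters (GRCm38.p6, 250 bases before to 50 after the annotated start) were at hand for 32 of the 39 genes; Aurkb, Ccna2, Cdc25c, Foxm1, Kif20a, Smc4 and Tpx2 had no entry. Both strands were searched. The CHR core TTTGAA was present in 25 of the 32 (78.1%), against 14.9% of the 11939 tested genes with a promoter and 17.9% of all 32851 promoters. The variant TTTAAA was present in 9 (28.1%), against 11.5% of tested genes and 13.2% of all promoters. The CCAAT letters were present in 25 (78.1%), against 42.7% and 37.4%. For E2F-type sites the letters TTTCGCG were searched, together with the form TTTGGCG, the further form TTTCCCG and the last form, TTTGCCG. Any of these was present in 5 (15.6%), against 12.0% and 6.7%. TTTAAA reads the same on both strands and was counted once, and matches of different motifs could share bases at their ends.

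In 17 of the 32 (53.1%) a CCAAT box lay within 60 bases 5′ of a CHR core, at a median gap of 26 bases, against 1.99% of tested genes; this pair was measured after the matches had been seen. The CHR core was in 14 of 18 genes called lower and in 11 of 14 not called, and CCAAT letters were in 16 of the 18 and 9 of the 14; neither difference was tested. The median log2 fold change was -0.18 over the 25 genes with a CHR core and -0.24 over the 7 without a CHR core. A match is a run of letters in the reference and was not tested as a binding site here.

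Printed next are 7 promoters, each 130 bases before to 20 after the start, read 5′ to 3′ on the gene's strand, with CHR cores, CHR variants and CCAAT boxes (on either strand) in capitals. They cover the gene with the lowest fold change (Mki67), the CDK1 and cyclin B genes, Top2a, and 2 genes that were not called although they carry the same letters (Cdc20 and Cenpf).
Mki67 (chr7:135716360-135716509, minus strand): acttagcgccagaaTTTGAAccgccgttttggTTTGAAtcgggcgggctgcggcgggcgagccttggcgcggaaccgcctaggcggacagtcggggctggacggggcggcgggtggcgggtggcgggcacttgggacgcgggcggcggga
Ccnb1 (chr13:100786467-100786616, minus strand): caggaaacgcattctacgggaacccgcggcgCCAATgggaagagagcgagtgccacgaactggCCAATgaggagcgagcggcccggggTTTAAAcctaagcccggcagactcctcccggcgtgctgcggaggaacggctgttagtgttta
Ccnb2 (chr9:70421535-70421684, minus strand): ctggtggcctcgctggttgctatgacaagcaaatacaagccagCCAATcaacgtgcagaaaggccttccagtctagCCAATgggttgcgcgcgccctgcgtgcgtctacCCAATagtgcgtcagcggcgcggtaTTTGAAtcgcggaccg
Cdk1 (chr10:69352893-69353042, minus strand): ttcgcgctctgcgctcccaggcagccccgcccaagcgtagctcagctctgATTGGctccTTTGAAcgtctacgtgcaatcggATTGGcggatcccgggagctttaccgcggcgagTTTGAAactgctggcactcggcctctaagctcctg
Top2a (chr11:99024170-99024319, minus strand): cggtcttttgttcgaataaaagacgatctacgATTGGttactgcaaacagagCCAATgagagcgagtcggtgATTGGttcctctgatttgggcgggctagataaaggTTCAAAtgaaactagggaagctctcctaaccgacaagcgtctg
Cdc20 (chr4:118437324-118437473, minus strand): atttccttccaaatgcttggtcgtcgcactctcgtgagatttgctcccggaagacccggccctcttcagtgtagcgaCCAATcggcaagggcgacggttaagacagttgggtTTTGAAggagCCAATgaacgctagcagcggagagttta
Cenpf (chr1:189688067-189688216, minus strand): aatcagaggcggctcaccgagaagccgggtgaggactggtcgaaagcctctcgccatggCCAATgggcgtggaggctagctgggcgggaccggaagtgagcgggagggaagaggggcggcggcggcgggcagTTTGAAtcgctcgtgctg
Mki67 has its CHR cores as a pair, at positions -116 and -98 from the start, and its 3 CCAAT boxes lie 5′ of the printed stretch. Ccnb1 has a variant in place of the core, at position -42 from the RefSeq start, with 2 CCAAT boxes 5′ of it. The GENCODE span of Ccnb1 begins further 5′, at 100786570 on the minus strand, so this variant lies inside that span. Ccnb2 and Cenpf have the core just 3′ of the start, and Cdk1 holds 2 cores that alternate with CCAAT boxes on the other strand. These coordinates and all sequences are from RefSeq, GRCm38.p6. All positions count from RefSeq starts, which can differ from those of GENCODE. The 30 bases from the start occurred in a GENCODE M21 transcript for 21 of 34 promoters. For Kif2c the whole searched stretch (117178723-117179022) lies inside the GENCODE gene span (117159639-117182639).

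**Figure D3:**
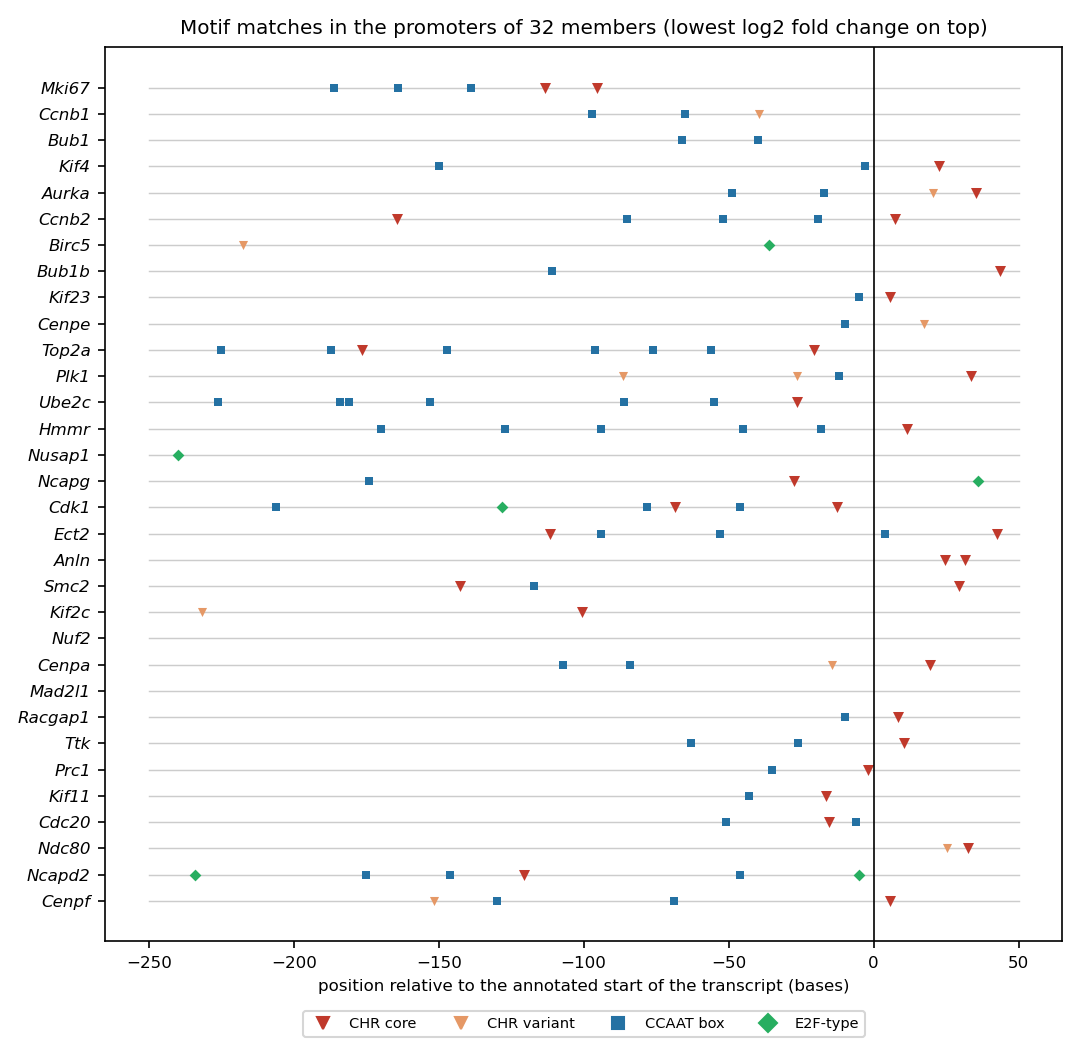
Rows are the 32 genes with a promoter entry, ordered from the lowest log2 fold change (top) to the highest, and symbols mark matches by their position in bases from the annotated start. CHR cores gather near the start (median first base -1), often with CCAAT boxes to their left, among genes at the top and at the bottom.

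Mitotic entry was the role with the most calls, 7 of 8 genes, with a median log2 fold change of -0.26. The roles hold 2 to 8 genes each, and their counts are set against the 22.4% of all genes tested that were lower. Cyclin B1 (Ccnb1, chr13:100778650-100786570, minus strand), the activating partner of CDK1, had 24.1, 23.4 and 25.3 CPM in ZM samples, against 32.3, 29.7 and 32.1 CPM in Ctrl samples. The groups were well apart, and the log2 fold change was -0.37 ± 0.06 (SE; adjusted p = 3.76e-05). The Ccnb1 transcript matches Ccnb1-ps, Gm8416 and Gm12856 at 97% identity or more over 51.9% of its length, so its reads may be divided between copies. Cyclin B2 (Ccnb2) had 12.5, 10.1 and 13.3 CPM in ZM samples, against 13.6, 15.2 and 15.2 CPM in Ctrl samples. ZM-2 was the lowest of them and the groups did not overlap, at -0.29 ± 0.09 (adjusted p = 0.017). Cdk1 itself (chr10:69335146-69352938, minus strand), the kinase that drives entry, had 30.9, 33.0 and 32.5 CPM in ZM samples, against 35.9, 35.0 and 38.8 CPM in Ctrl samples. Its fall was smaller in size than that of either B-type cyclin (-0.19 ± 0.05, adjusted p = 0.00772), though that difference between genes was not tested. Cyclin A2 (Ccna2), which partners CDKs in S phase and G2, had 23.3, 24.5 and 26.5 CPM in ZM samples, against 28.1, 26.3 and 28.9 CPM in Ctrl samples. Here ZM-3 lay above Ctrl-2, so the groups overlapped narrowly, and the fall was -0.16 ± 0.06 (adjusted p = 0.0367), the call nearest to the threshold of the 22.

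Cdc25c, the phosphatase that removes inhibitory phosphates from CDK1, was the scarcest of the 39 at 0.658 ± 0.0661 FPKM in ZM samples and 0.847 ± 0.0231 FPKM in Ctrl samples (SD, n = 3 each). It had 3.22, 2.84 and 3.45 CPM in ZM samples, against 4.31, 4.16 and 4.30 CPM in Ctrl samples, from as few as 129 counts in a library. Every ZM sample lay below every Ctrl sample, at -0.42 ± 0.12 (adjusted p = 0.0095). Plk1, the Polo-like kinase of mitotic entry and centrosome maturation, had 11.3, 11.1 and 13.4 CPM in ZM samples, against 13.9, 13.9 and 14.1 CPM in Ctrl samples. ZM-3 came close to the Ctrl samples without reaching them, and the fold change was -0.23 ± 0.08 (adjusted p = 0.0264). Aurka, the Aurora kinase of centrosomes and spindle poles, had 10.5, 10.1 and 10.2 CPM in ZM samples, against 12.8, 11.7 and 13.8 CPM in Ctrl samples. The ZM samples were nearly equal and all below the Ctrl range (-0.31 ± 0.08, adjusted p = 0.00328). The exception in this role was Foxm1, the transcription factor that drives many of these genes, with 19.6, 20.5 and 22.8 CPM in ZM samples, against 20.9, 21.6 and 23.2 CPM in Ctrl samples. Its groups overlapped (-0.06 ± 0.07, adjusted p = 0.477). The calls of Ccna2, Plk1, Ccnb2 and Cdk1 were lost under 8, 7, 6 and 5 of the 14 alternatives, with highest adjusted p-values of 0.200, 0.119, 0.109 and 0.0888.

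Among the 6 chromosome structure genes 3 were lower. Mki67 (chr7:135689784-135716361, minus strand), which encodes the Ki-67 protein that coats mitotic chromosomes and is the usual marker of cycling cells, had 122, 116 and 129 CPM in ZM samples, against 166, 167 and 174 CPM in Ctrl samples. Its log2 fold change was the lowest of the 39 (-0.47 ± 0.04, adjusted p = 9.18e-08). Per length it was also the most abundant of them in Ctrl cells, at 12.4 ± 0.701 FPKM in ZM samples and 16.4 ± 0.520 FPKM in Ctrl samples (SD, n = 3 each). Top2a (chr11:98992943-99024189, minus strand), the topoisomerase that untangles sister chromatids, had 82.4, 84.4 and 87.4 CPM in ZM samples, against 96.5, 97.3 and 103 CPM in Ctrl samples. The groups were apart, at -0.23 ± 0.04 (adjusted p = 0.000207). Of the genes among the 39 for condensin, the ring complex that compacts chromosomes, only Smc2 was called. All had negative log2 fold changes, and differences between them were not tested. Smc2, an ATPase of the condensin core, was lower at -0.16 ± 0.04 (adjusted p = 0.00436), with groups that did not overlap. It lost the call under 1 of the 14 alternatives (adjusted p = 0.0602). Its core partner Smc4 had 59.8, 66.0 and 60.5 CPM in ZM samples, against 67.0, 63.7 and 63.7 CPM in Ctrl samples (-0.06 ± 0.05, adjusted p = 0.287). The condensin subunit Ncapg had 9.54, 12.2 and 12.0 CPM in ZM samples, against 14.4, 11.2 and 12.8 CPM in Ctrl samples (-0.19 ± 0.11, adjusted p = 0.186). For the subunit Ncapd2 the values were 34.5, 30.8 and 32.6 CPM in ZM samples, against 34.3, 30.5 and 35.4 CPM in Ctrl samples (-0.03 ± 0.06, adjusted p = 0.706). In these last 3 genes the groups overlapped, and the sign of Ncapd2 turned positive under 5 of the 14 alternatives.

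**Figure D4:**
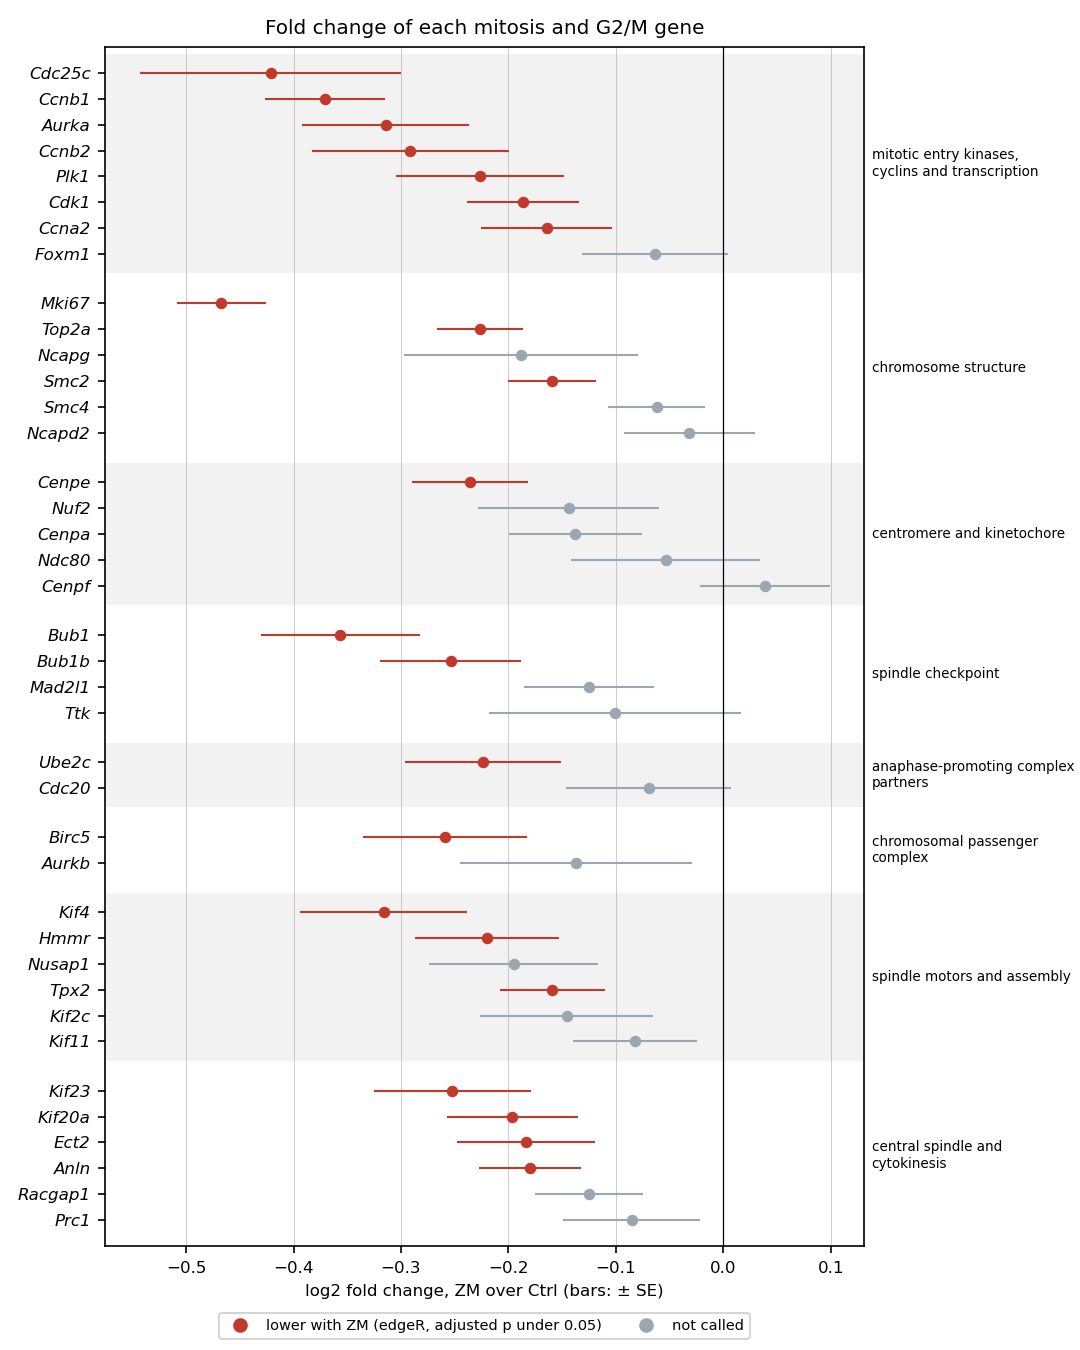
Points are the log2 fold change, ZM over Ctrl, of each of the 39 genes with bars of ± 1 SE, grouped by role (red, called lower; grey, not called). The 22 called genes lie between -0.47 and -0.16 and the 17 others between -0.20 and 0.04.

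At the centromere and kinetochore 1 of 5 genes was lower (20.0%), a share near the 22.4% of all genes tested. Cenpe, the kinesin that links kinetochores to microtubules, stood at -0.24 ± 0.05 (adjusted p = 0.00187) with no overlap between groups. Cenpa, the histone variant that marks centromeres, had 17.0, 17.9 and 17.2 CPM in ZM samples, against 18.3, 19.1 and 19.8 CPM in Ctrl samples. Its groups did not overlap either, yet it missed the threshold (-0.14 ± 0.06, adjusted p = 0.0821). Cenpf (chr1:189640606-189688086, minus strand), a large kinetochore protein, had 21.9, 23.0 and 24.4 CPM in ZM samples, against 22.2, 22.0 and 23.2 CPM in Ctrl samples. It was the only one of the 39 with a positive value (0.04 ± 0.06, adjusted p = 0.635), and the groups overlapped. Ndc80 and Nuf2 are partners in the complex that grips microtubules. Ndc80 had 8.54, 9.28 and 9.58 CPM in ZM samples, against 9.10, 10.5 and 8.82 CPM in Ctrl samples (-0.05 ± 0.09, adjusted p = 0.654). Nuf2 had 11.0, 13.6 and 12.8 CPM in ZM samples, against 13.0, 13.4 and 14.8 CPM in Ctrl samples (-0.14 ± 0.08, adjusted p = 0.183). Both overlapped between groups.

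Of the spindle checkpoint, whose kinases and adaptors delay anaphase, 2 of 4 genes were lower. Bub1, a checkpoint kinase, had 14.0, 14.2 and 14.0 CPM in ZM samples, against 20.0, 17.7 and 16.5 CPM in Ctrl samples. The 3 ZM samples were close together below a wider Ctrl range (-0.36 ± 0.07, adjusted p = 0.000819). Bub1b, its relative in the mitotic checkpoint complex, was at -0.25 ± 0.07 (adjusted p = 0.00461), again with no overlap. Ttk, the kinase that starts checkpoint signalling, had 5.13, 6.22 and 6.85 CPM in ZM samples, against 6.71, 5.76 and 7.03 CPM in Ctrl samples (-0.10 ± 0.12, adjusted p = 0.517), and overlapped. Mad2l1, which binds and restrains CDC20, had 20.7, 19.3 and 20.7 CPM in ZM samples, against 22.6, 22.5 and 21.2 CPM in Ctrl samples. All its ZM samples were below all Ctrl samples without passing the threshold (-0.12 ± 0.06, adjusted p = 0.106).

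Of the 2 partners of the anaphase-promoting complex among the 39, 1 was lower. Ube2c, its ubiquitin-conjugating enzyme, was lower at -0.22 ± 0.07 (adjusted p = 0.0191), a call kept in 8 of the 14 alternatives (highest adjusted p 0.111). Cdc20, its activator in mitosis, had 14.3, 13.4 and 14.3 CPM in ZM samples, against 13.5, 14.2 and 16.3 CPM in Ctrl samples. The groups overlapped and no fall was called (-0.07 ± 0.08, adjusted p = 0.496). In the chromosomal passenger complex, which corrects faulty attachments and steers cytokinesis, survivin (Birc5) had 12.2, 13.4 and 11.2 CPM in ZM samples, against 14.2, 14.8 and 15.0 CPM in Ctrl samples. It was lower with no overlap (-0.26 ± 0.08, adjusted p = 0.0105), and lost the call under 1 alternative (adjusted p = 0.061). Its kinase Aurkb had 8.97, 9.83 and 9.18 CPM in ZM samples, against 8.86, 9.54 and 12.3 CPM in Ctrl samples. Ctrl-3 stood above the other 5 samples and the groups overlapped (-0.14 ± 0.11, adjusted p = 0.329). Whether Aurkb responded less than Aurka was not tested.

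Among spindle motors and assembly factors 3 of 6 genes were lower. Kif4, a motor that rides on chromosome arms, had the lowest value of them (-0.32 ± 0.08, adjusted p = 0.00324). Hmmr, a spindle protein also known as a hyaluronan receptor, was at -0.22 ± 0.07 (adjusted p = 0.0128), and Tpx2, which activates Aurora A on the spindle, at -0.16 ± 0.05 (adjusted p = 0.0142). In all 3 the groups were apart, while the calls of Hmmr and Tpx2 were lost under 5 and 4 of the 14 alternatives (highest adjusted p 0.114 and 0.115). Kif11, the motor that pushes spindle poles apart, had 22.8, 23.6 and 25.6 CPM in ZM samples, against 25.3, 25.6 and 25.4 CPM in Ctrl samples (-0.08 ± 0.06, adjusted p = 0.266). Kif2c, which shortens microtubules at kinetochores, had 9.93, 11.1 and 10.7 CPM in ZM samples, against 11.4, 11.0 and 12.7 CPM in Ctrl samples (-0.15 ± 0.08, adjusted p = 0.156). Both overlapped between groups. Nusap1, a microtubule-bundling protein, had 12.1, 11.5 and 13.2 CPM in ZM samples, against 14.7, 12.9 and 14.6 CPM in Ctrl samples. It lay just outside the threshold (-0.20 ± 0.08, adjusted p = 0.053) and passed it under 5 of the 14 alternatives.

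The central spindle and cytokinesis genes gave 4 calls of 6. Kif23, a motor of the centralspindlin complex, was at -0.25 ± 0.07 (adjusted p = 0.00972). Kif20a, a motor that carries passenger proteins to the midzone, was at -0.20 ± 0.06 (adjusted p = 0.0146). Anln (anillin), the scaffold of the contractile ring, was at -0.18 ± 0.05 (adjusted p = 0.00496), and Ect2, the exchange factor that switches on RhoA there, at -0.18 ± 0.06 (adjusted p = 0.0287). In each of these 4 every ZM sample was below every Ctrl sample. The calls of Ect2, Kif20a, Kif23 and Anln were lost under 9, 5, 3 and 3 of the 14 alternatives, with highest adjusted p-values of 0.139, 0.0815, 0.105 and 0.108. Racgap1, the partner of Kif23 in centralspindlin, had 29.2, 29.1 and 29.5 CPM in ZM samples, against 30.7, 31.5 and 33.4 CPM in Ctrl samples. It did not overlap between groups and was just short of the threshold (-0.12 ± 0.05, adjusted p = 0.0542). Prc1, which bundles the central spindle, had 22.1, 23.9 and 26.0 CPM in ZM samples, against 25.9, 26.1 and 24.4 CPM in Ctrl samples, with overlap (-0.09 ± 0.06, adjusted p = 0.303).

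Some of these genes share exon sequence with a neighbour on the opposite strand, and the strand setting of the counting is not given in the sources used here, so reads of the pair may not be told apart. The shared part of the exons was 29.3% for Kif20a (with Cdc23), 22.8% for Ube2c (Tnnc2), 15.1% for Kif4 (Pdzd11), 13.4% for Ncapg (Lcorl), 12.7% for Cdc25c (Gm3550), 12.5% for Ccna2 (Exosc9) and 11.1% for Prc1 (Rccd1). Cdc23, the neighbour of Kif20a, was higher with ZM (0.27 ± 0.04, adjusted p = 5.06e-05).

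A second list of 71 mitosis genes outside the 39 was also chosen with earlier results of these data known. It gave 23 lower (32.4%, against 22.4% of all genes tested), 4 higher (5.63%, against 22.8%) and 44 not called. Its median log2 fold change was -0.18. The lowest were Cks2, a small CDK-binding protein (-0.51 ± 0.08, adjusted p = 3.62e-05), Ska3, a kinetochore subunit (-0.44 ± 0.10, adjusted p = 0.00139), and Cdc25b, a phosphatase that activates CDK1 (-0.44 ± 0.07, adjusted p = 5.69e-05). The highest were Wee1, the kinase that holds CDK1 inactive (0.39 ± 0.05, adjusted p = 4.77e-06), and the microtubule-associated Gtse1 (0.32 ± 0.05, adjusted p = 5.15e-05) and Psrc1 (0.31 ± 0.04, adjusted p = 8.42e-06). Wee1 had 34.2, 34.9 and 34.1 CPM in ZM samples, against 26.6, 25.6 and 26.6 CPM in Ctrl samples, and Cdc25b had 14.6, 14.8 and 14.4 CPM in ZM samples, against 21.2, 18.3 and 19.9 CPM in Ctrl samples. Pkmyt1, the other kinase on this list that inhibits CDK1, was not called and its groups overlapped (0.13 ± 0.10, adjusted p = 0.322). The count of 23 was 15 without ZM-1, against 18.8% of all genes tested, and 15 with library size alone, against 17.4%. With limma on FPKM it was 10, against 19.2%.

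The 17 subunits and partners of the anaphase-promoting complex gave 4 lower (23.5%), 3 higher (17.6%) and 10 not called, with a median of -0.03, against 22.4% lower and 22.8% higher over all genes tested, so the lower share is near that of all genes. The lowest called were Anapc15 (-0.36 ± 0.10, adjusted p = 0.00833), the ubiquitin-conjugating enzyme Ube2s (-0.29 ± 0.04, adjusted p = 3.12e-05) and the complex's inhibitor Fbxo5 (-0.23 ± 0.08, adjusted p = 0.0371). The highest were the subunits Cdc23, Anapc2 (0.15 ± 0.03, adjusted p = 0.00118) and Anapc5 (0.13 ± 0.03, adjusted p = 0.00454). Cohesin, which holds sister chromatids together and is also made outside mitosis, had 6 of 10 genes higher, against 22.8% of all genes tested, and 1 lower, with a median of 0.15. Highest were Pds5b (0.34 ± 0.04, adjusted p = 7.75e-06), the ring subunit Smc3 (0.29 ± 0.05, adjusted p = 0.000108) and the loader Nipbl (0.23 ± 0.04, adjusted p = 8.62e-05), and the 1 lower was the release factor Wapl (-0.10 ± 0.04, adjusted p = 0.0282). The calls of Fbxo5, Wapl and Anapc15 were lost under 9, 5 and 3 of the 14 alternatives.

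Of 32 genes of G1/S and DNA replication, 12 were lower (37.5%, against 22.4% of all genes tested), 2 higher (6.25%, against 22.8%) and 18 not called, with a median of -0.13. The lowest were the replisome subunit Gins1 (-0.47 ± 0.12, adjusted p = 0.0043) and the nucleotide enzymes Tyms (-0.46 ± 0.06, adjusted p = 7.16e-06) and Dut (-0.35 ± 0.07, adjusted p = 0.000794). The 2 higher were Gins3 (0.39 ± 0.11, adjusted p = 0.00633) and Rrm1, a ribonucleotide reductase subunit (0.16 ± 0.04, adjusted p = 0.00352). With library size alone 6 of these genes were lower, against 17.4% of all genes tested, and with limma on FPKM 6, against 19.2%. Without Ctrl-3 the count was 7, against 19.5%.

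Of 21 transcription factors and cofactors of the cell cycle, 7 were lower (33.3%, against 22.4% of all genes tested) and 6 higher (28.6%, against 22.8%), with a median of -0.10. E2f2, an activating E2F, had 7.60, 6.93 and 7.99 CPM in ZM samples, against 16.5, 15.6 and 15.9 CPM in Ctrl samples. That is the largest fall of any gene on the cell cycle lists (-1.09 ± 0.08, adjusted p = 4.75e-09). The repressor E2f8 (-0.30 ± 0.10, adjusted p = 0.023) and the pocket protein Rbl1 (-0.30 ± 0.05, adjusted p = 0.000204) were lower as well. The other pocket protein of DREAM, Rbl2, had 55.8, 54.8 and 60.5 CPM in ZM samples, against 45.8, 41.2 and 44.8 CPM in Ctrl samples, and was higher (0.38 ± 0.05, adjusted p = 1.13e-05). Higher too were the E2F dimer partner Tfdp2 (0.51 ± 0.07, adjusted p = 2.79e-05) and the MuvB subunit Lin52 (0.24 ± 0.09, adjusted p = 0.031). The components of MuvB and DREAM did not move together. The MuvB subunit Lin9 was lower (-0.29 ± 0.10, adjusted p = 0.0213), and Lin37 and Rbbp4 were not called. E2f4 was also lower (-0.22 ± 0.05, adjusted p = 0.000677). The calls of E2f8 and Lin52 were lost under 6 and 4 of the 14 alternatives. The lower count was 4 without ZM-1, against 18.8% of all genes tested, and 4 with library size alone, against 17.4%. With limma on FPKM it was 3, against 19.2%.

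The 7 CDK inhibitors gave 3 higher (42.9%, against 22.8% of all genes tested) and 1 lower (14.3%, against 22.4%). Cdkn1c had 3.43, 4.00 and 4.02 CPM in ZM samples, against 0.762, 0.899 and 0.752 CPM in Ctrl samples, the largest rise on the cell cycle lists (2.23 ± 0.17, adjusted p = 1.14e-08). Cdkn1b (0.38 ± 0.05, adjusted p = 2.58e-05) and Cdkn2b (0.25 ± 0.04, adjusted p = 0.000119) were higher too. Cdkn2a, the locus of a CDK inhibitor and of ARF, was lower, with 34.7, 35.8 and 35.0 CPM in ZM samples, against 51.9, 54.5 and 52.6 CPM in Ctrl samples (-0.59 ± 0.04, adjusted p = 5.7e-09). The median of the 7 was 0.07.

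**Figure D5:**
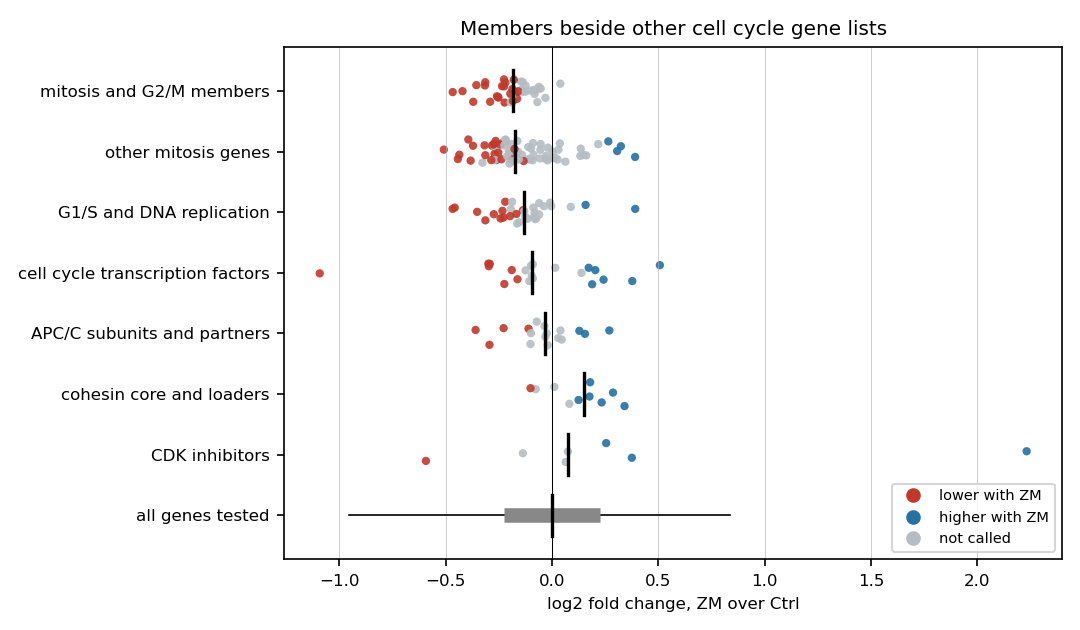
Points are the log2 fold change, ZM over Ctrl, of the tested genes of each cell cycle list (red, lower; blue, higher; grey, not called), with black ticks at the medians; the bottom row gives the median, the quartiles (grey bar) and the range from the 5th to the 95th percentile (line) of all genes tested. The medians of the mitotic genes (-0.18) and of the second mitosis list (-0.18) lie left of 0, that of cohesin (0.15) lies right of it, and E2f2 and Cdkn1c stand far out on either side.

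Beside the fall of the mitotic genes, 17 of 18 macrophage markers (94.4%) were lower and 1 was higher with ZM (median log2 fold change -0.65). Of 11 osteoclast markers 10 (90.9%) were higher (median 2.47). Of 11 tested osteoblast markers 7 (63.6%) were higher with 1 lower (median 0.43). Over all genes tested 22.4% were lower and 22.8% higher. Which cell types carried the mitotic transcripts cannot be read from these bulk libraries, and the part that the change in markers has in the fall was not tested. Across the 39 genes the log2 fold change went only weakly with the log2 level in Ctrl samples (Pearson r = -0.20, Spearman rho = -0.20, across genes that share the same 6 libraries).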

How the data were processed

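Per the file headers, the table deposited by the authors holds a read count and an FPKM value per gene and sample. The counts are whole and not normalized. The deposited FPKM came out as the count over the column total and a constant length per gene (whole within 0.01 for 100% of genes with counts), so they carry library size scaling only. Per the submitters' processing notes, HISAT2 2.2.1, featureCounts 2.0.3 (Subread) and DESeq2 were used with mm10. Annotation, strandedness and multi-mapping rules were not given in the sources at hand. Libraries were made from total RNA with an mRNA kit, per the labels' protocols.

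Groups and replicate numbers came from the sample titles. Counts of all 31401 genes (249 without a symbol) were filtered with filterByExpr, scaled by TMM and fitted with the robust quasi-likelihood model of edgeR 4.0.16 in R 4.3.3, ZM over Ctrl, with Benjamini-Hochberg adjustment over 17533 genes and a threshold of 0.05. CPM values use the TMM-scaled libraries, and a standard error is the absolute log2 fold change over the square root of F. The biological coefficient of variation was 6.46%. Replicate libraries differed by more than counting noise (chi-square over its degrees of freedom 4.30 to 6.89), and each was taken as 1 sample. That difference may be technical and does not show separate cultures or animals. Counts of the 39 genes ran from 129 to 11300.0 per library. The procedure was run on simulated data with changes of 1.2-fold or more. A minimum recovery was required only for the largest of these changes, with a limit on false calls. Recovery at 1.2-fold is not reported here, and the procedure was not tested at the smaller changes that most of the 39 genes showed.

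Alternatives were a replicate block, each sample left out, DESeq2 1.42.0, RLE size factors, library size alone, no filter, a mean of at least 1 CPM, and limma 3.58.1 on log2(FPKM + 1) or log2(FPKM + 0.1) for genes with a mean of at least 1 FPKM, where a fold change understates that of low genes. The 39 genes and all lists were chosen with earlier results of these data known. Values in every sample are given for a fixed set of leading members, the 4 lowest and 4 highest, and each member not called. Up to 3 called genes at either end of each cell cycle list are named, with Pkmyt1, Lin9, Lin37, Rbbp4 and E2f4 besides. Lin54 and Emcn were not matched in the table. Of 6 lymphoid and erythroid markers in the table, 1 passed the filter. Promoters were RefSeq GRCm38.p6 sequences matched by symbol. Gene coordinates and exon overlaps are from GENCODE M21 on GRCm38, 1-based, and copies were sought with BLAST+ 2.17.0 (identity of at least 97% over at least 100 nt).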

Additional observations from a re-analysis of the deposited data

How the results depend on the processing

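Across the 39 genes and 14 alternatives, 473 gene results stayed on their side of the threshold, 63 lost the call and 8 gained it. The sign changed in 13 results of 6 uncalled genes (Ncapd2, Ndc80, Ttk, Cdc20, Aurkb and Cenpf) and in 0 of the called genes. The count of lower members, 22 as reported, was 11 with library size alone and 10 with limma on either FPKM scale, 13 to 21 with 1 sample left out, and 20 to 24 under the other alternatives. The median log2 fold change of the members was -0.12 with library size alone, -0.094 with limma on log2(FPKM + 1) and -0.12 on log2(FPKM + 0.1), and -0.22 to -0.16 with 1 sample left out. Over all genes, 2348 and 2345 were lower with limma at pseudocounts of 1 and 0.1, against 3935 as reported; 12205 genes were tested there. Summed levels of the ZM samples were 90.5% of Ctrl on FPKM and 86.4% on CPM. Same-numbered samples of the groups did not deviate together (correlations -0.04, 0.06 and -0.01), so the numbers were not taken as pairs; with the replicate block 23 members were lower, among them all 22. For the other lists, 274 counts were within 1.5 times the reported one and 34 were not. Depth limits Cdc25c most, at 129 counts in its lowest library. The RefSeq promoters cover 32 of the 39 genes.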
